A study of Mus musculus with 23 samples.

Results

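The Cyp3a family was examined here in the mouse ileum, the last part of the small intestine. Its members were the 8 genes Cyp3a11, Cyp3a13, Cyp3a16, Cyp3a25, Cyp3a41a, Cyp3a44, Cyp3a57 and Cyp3a59, found as all probes that the scanner files name after one of them. Each gene had 1 probe, so the family made up 8 of the 17727 genes with a tested probe, and no other probe carried a Cyp3a name. All 8 probes were among the 37591 tested of 56605, that is, well above background on at least 50% of the arrays of 1 group or more.

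Single-colour Agilent arrays were read for 23 male mice on the C57Bl6/J background, 1 array per mouse. Wild-type mice (WT) were purchased aged 6 weeks, whereas mice lacking the pregnane X receptor (Pxr-/-, gene Nr1i2) came from a colony kept by the study's laboratory for 10 years, so genotype and breeding origin cannot be told apart. Mice were acclimatised for 2 weeks before they were allocated to groups, and the study's methods give an age only for the purchased mice. PCN (pregnenolone 16α-carbonitrile) was injected into the abdomen in corn oil at 100 mg/kg per day for 4 days, and control mice (CONT) received the oil alone. Ileum was collected at ZT6, 6 h after the last dose, which gave 6 arrays for WT CONT, 5 for WT PCN, 6 for Pxr-/- CONT and 6 for Pxr-/- PCN. The study had allocated 6 mice to each group, and why WT PCN has only 5 arrays is not stated. RNA came from ileum tissue with all its cell types, so fewer cells of a type and less RNA per cell cannot be told apart.

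Cytochromes P450 of the 3A family are haem enzymes of the endoplasmic reticulum that oxidise steroids, bile acids and a large share of drugs, and they take their electrons from P450 oxidoreductase. In the gut wall they sit in enterocytes and act on compounds before these reach the blood. PXR is a nuclear receptor that binds PCN in rodents, pairs with the retinoid X receptor and binds hexamer repeats near its target genes. Mouse Cyp3a11 is the member most often used to read PXR activity, and Cyp3a13 is long known from mouse intestine. Cyp3a16, Cyp3a41a and Cyp3a44 are known in liver for levels that depend on age or sex, with Cyp3a41a and Cyp3a44 higher in females, and Cyp3a25 is an adult steroid hydroxylase.

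The probes are 60 bases long, and related genes can bind to the same probe. The array's own annotation lists up to 4 accessions per probe, and the probe named Cyp3a11 lists Cyp3a11, Cyp3a41a, Cyp3a41b and Cyp3a44. Its target spans 1868 bases on mm9 (chromosome 5, 146672058 to 146673925, minus strand), so it crosses at least 1 splice junction. The probe named Cyp3a25 (chromosome 5, 146789175 to 146789234) lists Cyp3a25 and Cyp3a59, and that named Cyp3a41a (chromosome 5, 146505792 to 146505851) lists Cyp3a41a and Cyp3a41b. The probes of Cyp3a13, Cyp3a16, Cyp3a44, Cyp3a57 and Cyp3a59 each list 1 gene. Signal of the Cyp3a11 probe therefore cannot be assigned to Cyp3a11 alone, and no result below separates it from that of Cyp3a41a or Cyp3a44. The probes of Cyp3a11 and Cyp3a59 are shown because the first is the shared one and the second lists a single gene.
Cyp3a11: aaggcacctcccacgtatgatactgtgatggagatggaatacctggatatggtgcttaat
Cyp3a59: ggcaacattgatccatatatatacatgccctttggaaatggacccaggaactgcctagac

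The closest pair of probes was Cyp3a25 and Cyp3a57, identical at 49 of 52 aligned bases, with a longest shared run of 29. Counted from 1 at the 5′ end of the Cyp3a25 probe, the differences from Cyp3a25 to Cyp3a57 were G17T, T47C and A49G. Every other pair shared at most 9 bases in a row in the same orientation. Below is the 30-base window starting at base 20 of the Cyp3a25 probe, with the bases that differ in capitals, since a probe with so few differences may bind both transcripts.
Cyp3a25: gtgtcaagagataaacccagaactggaTcA
Cyp3a57: gtgtcaagagataaacccagaactggaCcG

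The members fall into 3 sets by the sequence just before their start sites. RefSeq promoter windows (GRCm38.p6) were found for all 8, and the 250 bases upstream of the start were aligned pair by pair with gaps. Cyp3a16, Cyp3a41a and Cyp3a44 were 91.3% to 94.4% identical, and Cyp3a11 was 72.5% to 76.6% identical to them. Cyp3a25, Cyp3a57 and Cyp3a59 were 88.9% to 94.8% identical to one another. Identity between these sets, and of Cyp3a13 with any other member, was 52.4% to 58%, close to the 46.4% to 54.2% obtained after reversing the letter order of the second window in the 56 alignments. One window of each kind is shown, on the strand of the gene. The size of the PCN response in WT, described next, divided the members in the same way. The difference between oil-treated genotypes did not: it was -1.81 for Cyp3a11 and -3.86 for Cyp3a41a, on either side of Cyp3a25 (-2.95). A link between these sequences and the response was not tested. Capitals mark AGNTCA, the hexamer that receptors of this class bind, on either strand.
Cyp3a11 (chr5:145879855-145880104, minus strand): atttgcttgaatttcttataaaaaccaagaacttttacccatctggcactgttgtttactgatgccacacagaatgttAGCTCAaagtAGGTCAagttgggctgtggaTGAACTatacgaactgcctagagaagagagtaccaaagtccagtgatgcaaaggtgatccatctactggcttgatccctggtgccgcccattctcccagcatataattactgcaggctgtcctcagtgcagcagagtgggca
Cyp3a41a (chr5:145720137-145720386, minus strand): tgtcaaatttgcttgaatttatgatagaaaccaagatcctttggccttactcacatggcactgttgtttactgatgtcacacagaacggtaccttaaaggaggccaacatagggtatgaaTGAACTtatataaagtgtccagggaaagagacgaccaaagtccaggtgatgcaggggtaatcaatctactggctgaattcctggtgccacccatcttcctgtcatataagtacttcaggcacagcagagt
Cyp3a25 (chr5:146009619-146009868, minus strand): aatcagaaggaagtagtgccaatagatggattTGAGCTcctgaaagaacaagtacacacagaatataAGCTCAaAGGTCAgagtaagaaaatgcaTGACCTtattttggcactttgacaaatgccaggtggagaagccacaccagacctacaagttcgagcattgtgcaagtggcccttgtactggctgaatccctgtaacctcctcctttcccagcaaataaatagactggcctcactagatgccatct
Cyp3a13 (chr5:137921620-137921869, minus strand): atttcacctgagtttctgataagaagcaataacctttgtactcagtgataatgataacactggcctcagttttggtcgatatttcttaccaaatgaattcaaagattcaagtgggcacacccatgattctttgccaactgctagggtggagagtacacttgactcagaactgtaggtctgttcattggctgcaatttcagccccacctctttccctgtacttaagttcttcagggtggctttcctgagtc

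AGNTCA occurred in 7 of the 8 windows, all but that of Cyp3a13, against 41.3% of the 32851 windows of this length. A direct repeat of AGNTCA with a spacer of 4 bases (DR4) was found in Cyp3a11, from -172 to -157 relative to the start, and in 0.103% of all windows. In Cyp3a25, Cyp3a57 and Cyp3a59 the same hexamer was repeated with a spacer of 1 base (DR1), which 0.183% of all windows held; this spacing was searched after the letters had been seen. The repeat with a spacer of 3 bases (DR3) and the everted repeat with 6 (ER6) were in 0 of the 8 windows, against 0.0517% and 0.0304% of all. With the last base of the first hexamer left free, a DR3 was found in Cyp3a11 from -142 to -128 and in 0.283% of all windows, a form also searched after the letters had been seen. These motifs overlap, since DR1 and DR4 each contain 2 hexamers, and a match is a match of letters, not a binding site. The windows do not reach distant enhancers.

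PCN raised most of the family in WT ileum. The tests called 7 of the 8 members higher and 0 lower, against 0.599% of all tested probes called higher and 0.0904% called lower. A call means an adjusted p of at most 0.05 over all probes and more than a 1.5-fold difference in limma. The median log2 difference was 2.86 over the members and -0.02 over all tested probes. Every WT PCN array lay above every WT CONT array for 8 of the 8 members, a separation shown by 1.3% of all probes. Values below are normalised log2 signals, and signals of different probes do not rank the genes by RNA amount.

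**Figure D1:**
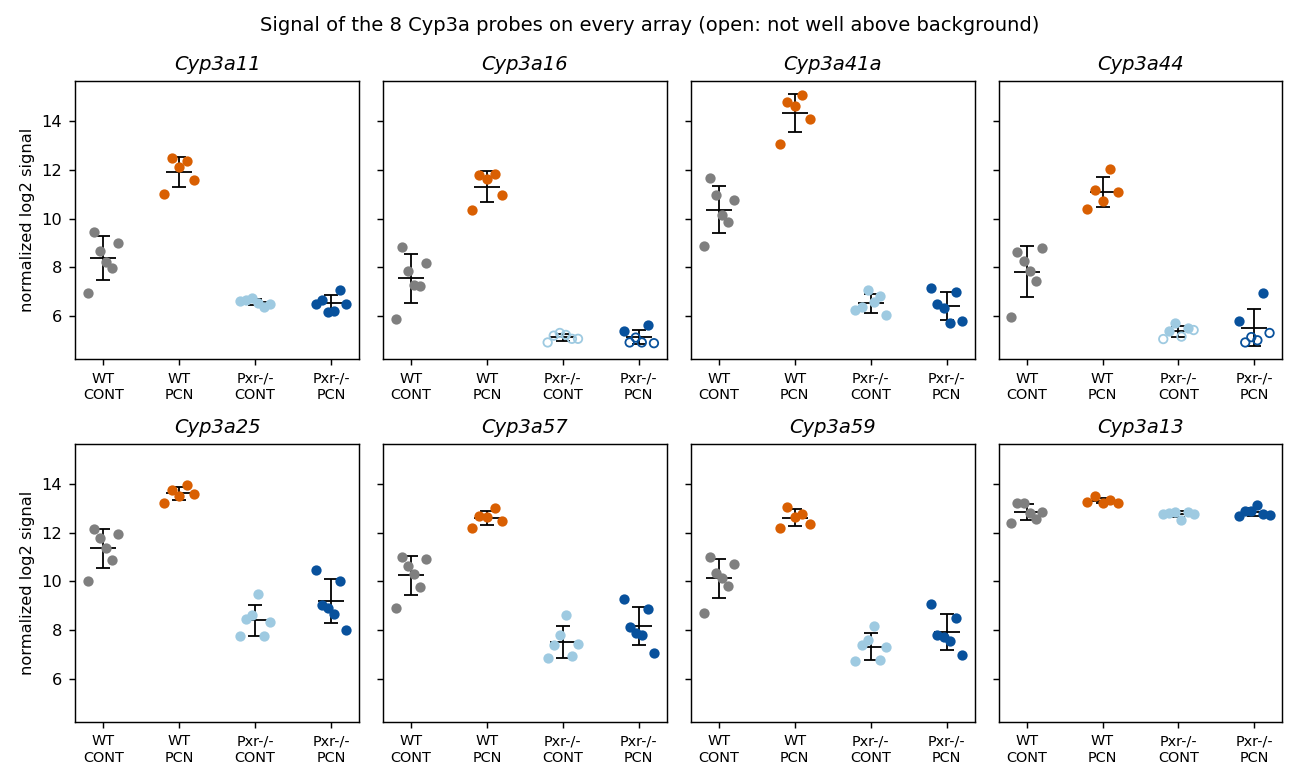
Normalised log2 signal (y axis) of each Cyp3a probe on the 23 arrays, by group (x axis); points are arrays, open where the probe was not well above background, and bars give the mean ± SD. WT PCN points lie above WT CONT points in all 8 panels, and the means of the Pxr-/- groups lie lowest in all panels but that of Cyp3a13. The highest Pxr-/- PCN points reach into the WT CONT range for Cyp3a11, Cyp3a25, Cyp3a44, Cyp3a57 and Cyp3a59.

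Cyp3a11, the usual reporter of PXR activity, had signals of 11.01, 11.59, 12.12, 12.36 and 12.51 in WT PCN. In WT CONT the lowest, median and highest were 6.94, 8.44 and 9.47. The groups did not overlap, and the means of 8.38 ± 0.89 (SD, n = 6) and 11.92 ± 0.62 (SD, n = 5) differed by 3.53 (SE 0.321, limma adjusted p = 1.21e-06), an 11.6-fold rise.

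Cyp3a41a, the form known as female-predominant in liver, was the member with the largest rise in these male mice. Its WT PCN signals were 13.08, 14.09, 14.65, 14.81 and 15.09, all above the WT CONT range of 8.86 to 11.67 (median 10.44). The log2 difference of 3.96 (SE 0.406, limma adjusted p = 7.42e-06) had rank 3 among all tested probes and equals 15.6-fold.

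Cyp3a16, a form known from young liver, reached 10.34, 10.97, 11.63, 11.80 and 11.84 in WT PCN. WT CONT arrays ran from 5.88 through a median of 7.58 to 8.82, and the log2 difference was 3.76 (SE 0.35, limma adjusted p = 1.63e-06). For Cyp3a44, WT PCN gave 10.40, 10.74, 11.10, 11.16 and 12.05, and WT CONT gave 5.96, 8.06 and 8.78 as lowest, median and highest. It rose by 3.25 (SE 0.407, limma adjusted p = 7.76e-05). In both genes the lowest treated array stood more than a log2 unit above the highest control array.

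The Cyp3a25, Cyp3a57 and Cyp3a59 set rose less in size. Cyp3a25 signals in WT PCN were 13.24, 13.53, 13.58, 13.74 and 13.98, against 10.03, 11.58 and 12.14 as lowest, median and highest in WT CONT. The log2 difference was 2.23 (SE 0.393, limma adjusted p = 0.00299), or 4.69-fold. Treated arrays were close together for this gene, with an SD of 0.27 against 0.79 in the controls. Cyp3a57 ranged from 12.21 to 13 in WT PCN and from 8.9 to 11.02 in WT CONT, and rose by 2.33 (SE 0.383, limma adjusted p = 0.00157). Cyp3a59 ranged from 12.19 to 13.07 and from 8.71 to 11.02, and rose by 2.46 (SE 0.358, limma adjusted p = 0.000444). Because Cyp3a25 lists Cyp3a59 as a target and differs from Cyp3a57 at 3 aligned bases, these are not 3 independent readings. Analysed within each wash batch alone, the set kept log2 differences of 2.05 to 2.79, but none of the 3 was called in either batch (limma adjusted p = 0.0555 to 0.283); in batch 1 Cyp3a44 also missed the call (3.73, limma adjusted p = 0.0753).

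Cyp3a13, whose gene lies 8337.5 kb from the Cyp3a11 probe, was not called. Its WT PCN signals of 13.24, 13.24, 13.28, 13.34 and 13.50 lay just above the WT CONT range of 12.40 to 13.22 (median 12.84). The log2 difference was 0.47 (95% interval 0.21 to 0.73, limma adjusted p = 0.0643), or 1.39-fold, below the fold threshold.

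**Figure D2:**
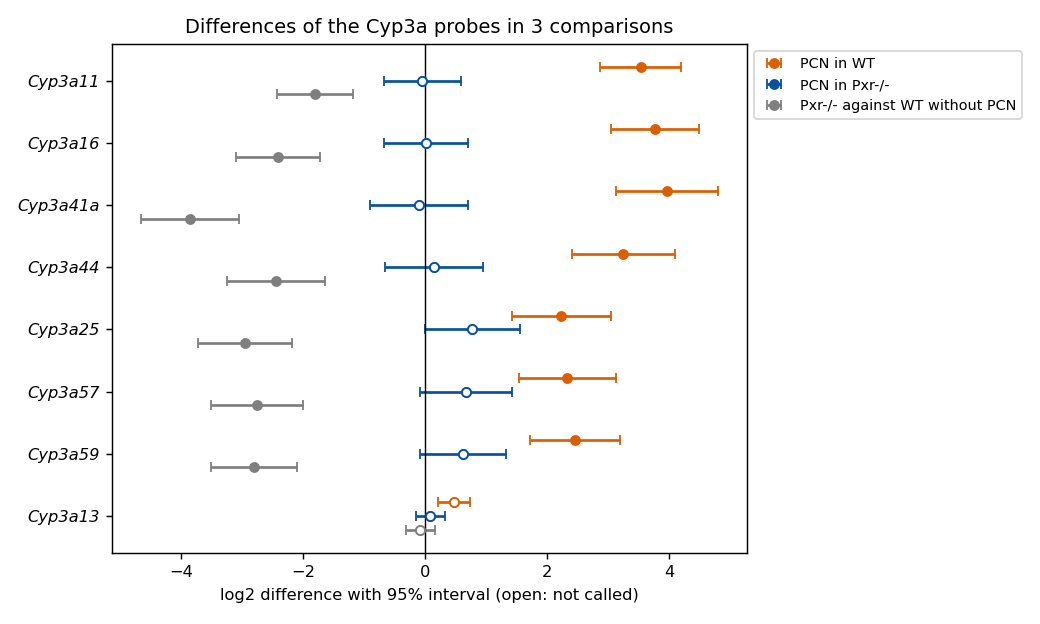
Log2 differences with 95% intervals (x axis) of the 8 Cyp3a members (y axis) for PCN in WT, PCN in Pxr-/- and Pxr-/- against WT without PCN; open points were not called. The WT response runs from 0.47 for Cyp3a13 to 3.96 for Cyp3a41a, while all 8 intervals in Pxr-/- reach 0.

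Unequal response within an array was tested directly, since the ratio of a pair of probes on the same array can be compared between groups. For each of the 7 other members the difference from Cyp3a11 was compared between WT PCN and WT CONT by a two-sided exact permutation test over 462 arrangements, whose smallest possible p is 0.00216, with Benjamini-Hochberg adjustment over the 7. Cyp3a25, Cyp3a57 and Cyp3a59 rose less than Cyp3a11, by -1.28, -1.19 and -1.05 log2 units, each in 5 of 5 treated arrays (exact permutation p = 0.00216, adjusted p = 0.00379). Cyp3a13 gained -3.06 relative to Cyp3a11 (exact permutation p = 0.00216, adjusted p = 0.00379). Cyp3a16 and Cyp3a41a rose slightly more, by 0.23 (exact permutation p = 0.0108, adjusted p = 0.0152) and 0.43 (exact permutation p = 0.0195, adjusted p = 0.0227). The value for Cyp3a41a did not pass in the authors' deposited table (0.42, adjusted p = 0.0505 by the exact permutation test). For Cyp3a44 the difference of -0.27 was within the spread (exact permutation p = 0.299). In the authors' deposited table, which holds all 8 probes, Cyp3a11 read 8.39 ± 0.87 (SD, n = 6) in WT CONT and 11.89 ± 0.74 (SD, n = 5) in WT PCN, and 7 members were called. The 7 comparisons with Cyp3a11 share the Cyp3a11 values, and the Cyp3a11 probe lists Cyp3a41a and Cyp3a44 as targets.

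Without the receptor the tests called no member after PCN: 0 of 8 were called, and 0 of 8 had an unadjusted p under 0.05, in a comparison that called 0.716% of all probes higher. The median log2 difference was 0.11 over the members and -0.01 over all tested probes. Cyp3a11 signals ran from 6.38 to 6.75 in Pxr-/- CONT and from 6.17 to 7.08 in Pxr-/- PCN, a difference of -0.05 (95% interval -0.68 to 0.58). Cyp3a41a differed by -0.1 (-0.9 to 0.7), Cyp3a44 by 0.14 (-0.66 to 0.94), Cyp3a16 by 0.01 (-0.68 to 0.7) and Cyp3a13 by 0.08 (-0.16 to 0.33). Each interval uses a spread shared by all 4 groups, not that of the Pxr-/- arrays alone. For Cyp3a11 the SD was 0.89 in WT CONT and 0.62 in WT PCN, but 0.13 in Pxr-/- CONT and 0.33 in Pxr-/- PCN. The Cyp3a16 probe was well above background on 0 of 6 Pxr-/- CONT and 2 of 6 Pxr-/- PCN arrays, and the Cyp3a44 probe on 3 of 6 and 2 of 6, so their values there lie at or near the background. The other 6 probes were well above background on all 23 arrays.

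Cyp3a25, Cyp3a57 and Cyp3a59 stayed clearly measurable without PXR and had the largest differences there, none called. Cyp3a25 signals were 7.76, 8.40 and 9.48 as lowest, median and highest in Pxr-/- CONT, and 8.02, 8.97 and 10.46 in Pxr-/- PCN. The log2 difference was 0.77 (95% interval 0 to 1.55, limma adjusted p = 0.259), with 0.67 for Cyp3a57 (adjusted p = 0.32) and 0.62 for Cyp3a59 (adjusted p = 0.329). Pxr-/- PCN replicates 1 and 5 were the highest 2 of the group for all 3 genes, and also for Cyp3a16, Cyp3a41a and Cyp3a44, and both belong to wash batch 2. Within wash batch 1 the PCN differences of Cyp3a25, Cyp3a57 and Cyp3a59 were -0.01, 0.01 and 0, and within wash batch 2 they were 1.55, 1.32 and 1.23 (limma adjusted p = 0.0859 to 0.132), with 3 arrays per group in each batch. With slide in place of wash batch in the model, Cyp3a25 (1.04, adjusted p = 0.0433) and Cyp3a57 (0.94, adjusted p = 0.0455) were called.

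The PCN response differed between genotypes for 4 members, Cyp3a11, Cyp3a16, Cyp3a41a and Cyp3a44. The interaction, WT response minus Pxr-/- response, was called higher for 4 of 8 against 0.0745% of all probes. It was 4.06 for Cyp3a41a (SE 0.56, limma adjusted p = 0.00182), the largest of all tested probes, 3.75 for Cyp3a16 and 3.58 for Cyp3a11 (adjusted p = 0.000875 for each) and 3.11 for Cyp3a44 (adjusted p = 0.0249). For Cyp3a25, Cyp3a57 and Cyp3a59 it was 1.46, 1.66 and 1.84 (adjusted p = 0.999, 0.72 and 0.392), and for Cyp3a13 0.39 (adjusted p = 0.999), so a difference between genotypes was not shown for these 4. The unadjusted intervals were 0.33 to 2.58, 0.57 to 2.76 and 0.82 to 2.87 for the set of 3. The call of Cyp3a44 rested on single arrays: it was lost without WT CONT replicate 5 (adjusted p = 0.0593), WT PCN replicate 2 (0.0519), Pxr-/- CONT replicate 5 (0.0592), Pxr-/- PCN replicate 2 (0.0612) or Pxr-/- PCN replicate 3 (0.056). It was also lost with slide as a fixed block (2.66, adjusted p = 0.0976). With the background-subtracted scanner signal, Cyp3a16 (3.82, adjusted p = 0.111) and Cyp3a44 (3.43, adjusted p = 0.482) were not called. No interaction was called within either wash batch alone, where the 4 values were 2.35 to 5.24.

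The same 7 members were lower in Pxr-/- than in WT mice when both had received only oil. Without PCN, 7 of 8 were called lower in Pxr-/- than in WT, against 0.104% of all probes. For these 7, all Pxr-/- CONT arrays lay below all WT CONT arrays, a separation shown by 0.474% of all probes. The median log2 difference was -2.6 over the members and 0 over all tested probes. Cyp3a41a had signals of 6.02, 6.47 and 7.08 as lowest, median and highest in Pxr-/- CONT, against 8.86, 10.44 and 11.67 in WT CONT. It fell by 3.86 on the log2 scale (SE 0.386, limma adjusted p = 1.07e-05), rank 3 among all tested probes by size in either direction. Cyp3a25, Cyp3a57 and Cyp3a59 differed by -2.95, -2.76 and -2.81 (adjusted p = 0.000229, 0.000362 and 0.000132). Cyp3a44 fell by 2.45 (adjusted p = 0.00338) and Cyp3a11 by 1.81 (adjusted p = 0.00698). Cyp3a16 was at least 5.17-fold lower, a bound because its probe was not well above background on any Pxr-/- CONT array (limma adjusted p = 0.000594). Cyp3a13 differed by -0.08 (95% interval -0.32 to 0.16). Within wash batch 1 alone only Cyp3a41a was called, though the other 6 kept differences of -1.69 to -2.69, and within wash batch 2 Cyp3a11 (-1.93) and Cyp3a44 (-2.59) were not called.

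Relative to Cyp3a11, the difference between oil-treated genotypes was larger for all 6 other members of the cluster. It was larger for Cyp3a41a (by -2.05, exact permutation p = 0.00216, adjusted p = 0.00505), Cyp3a25 (-1.14, exact permutation p = 0.00866, adjusted p = 0.0101), Cyp3a59 (-0.99, exact permutation p = 0.00433, adjusted p = 0.00606) and Cyp3a57 (-0.95, exact permutation p = 0.013, adjusted p = 0.013). The same held for Cyp3a44 (-0.64, exact permutation p = 0.00433, adjusted p = 0.00606) and Cyp3a16 (-0.61, exact permutation p = 0.00216, adjusted p = 0.00505). For Cyp3a13 it was smaller, by 1.73 (exact permutation p = 0.00216, adjusted p = 0.00505). This comparison was added after the data had been seen. The comparison shares the WT CONT arrays with that of the PCN response, in which Cyp3a25, Cyp3a57 and Cyp3a59 rose less than Cyp3a11. Signals were not background-subtracted, and Cyp3a11 at 6.57 ± 0.13 (SD, n = 6) in Pxr-/- CONT was nearer to the background floor (5.3) than Cyp3a25 at 8.41 ± 0.64. This floor is the highest, over the arrays, of each array's dimmest signal well above background. Over 6 other settings of normalization, background and permutation, the value relative to Cyp3a11 ran from -2.6 to -0.21 for Cyp3a16. It ran from -1.89 to -0.31 for Cyp3a44, from -2.26 to -1.92 for Cyp3a41a and from -1.32 to -0.97 for Cyp3a25. All 7 members passed in each setting. Which part of the unequal differences belongs to the background was not tested.

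Under PCN the genotypes differed most. All 8 members lay lower on every Pxr-/- PCN array than on every WT PCN array (0.662% of all probes did), and 7 were called lower against 0.303% of all probes. Cyp3a41a fell by 7.92 (SE 0.406, limma adjusted p = 7.37e-11), that is 243-fold and the largest difference of all tested probes. Cyp3a16, Cyp3a44 and Cyp3a11 differed by -6.17, -5.56 and -5.4, and Cyp3a59, Cyp3a57 and Cyp3a25 by -4.65, -4.42 and -4.41. Cyp3a13 differed by -0.47 (limma adjusted p = 0.114). This comparison shares its arrays with the ones above and is no separate evidence. For Cyp3a16 and Cyp3a44 the size depended on the processing. The scanner's background-subtracted signal gave -8.56 and -7.46, and for oil-treated mice -4.74 and -4.03, all called. That setting also replaced the quantile normalization, so the part of the background alone was not tested. These were the largest sizes over 18 other settings. The smallest were -5.26 and -4.78, and for oil-treated mice -1.76 and -1.86.

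The 7 responding members varied more between WT CONT mice than most probes did. Their SD there was 0.79 to 1.04, at or above the 99.3th percentile of all tested probes, whose median SD was 0.146. WT CONT replicate 1 was the lowest of its group for all 8 members, 6.94 for Cyp3a11 and 8.86 for Cyp3a41a. Left out, it moved the Cyp3a11 response to 3.25 and that of Cyp3a25 to 1.99, both still called. In Pxr-/- CONT the SD of Cyp3a11 fell to 0.13, the 31.2th percentile, while that of Cyp3a25 stayed at 0.64, the 98.8th. Cyp3a11, at a mean of 6.57, was nearer there to the background floor (5.3) than Cyp3a25 at 8.41. The part of this in the spread was not tested.

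Deviations from the group means were most alike among Cyp3a25, Cyp3a57 and Cyp3a59, with Pearson's r of 0.973 to 0.991 over the 23 arrays. Among Cyp3a11, Cyp3a16, Cyp3a41a and Cyp3a44 it ran from 0.797 (Cyp3a41a with Cyp3a44) to 0.957 (Cyp3a11 with Cyp3a16). Between these sets it ran from 0.626 (Cyp3a11 with Cyp3a25) to 0.794 (Cyp3a16 with Cyp3a59), so the weakest pair within the set of Cyp3a11 was about as alike as the closest pair across the sets. Cyp3a13 had 0.218 to 0.581 with the others. These pooled values hide differences between the groups of 5 or 6 arrays. Cyp3a13 had r of 0.809 to 0.939 with the others in WT CONT, but -0.608 to -0.346 in Pxr-/- PCN. In WT CONT a pair across the sets, Cyp3a11 with Cyp3a25, had 0.981, above Cyp3a41a with Cyp3a44 (0.918). Cyp3a11 with Cyp3a16 had 0.421 in Pxr-/- CONT, and Cyp3a25 with Cyp3a59 had 0.735 in WT PCN. These coefficients are a description, because the probes share arrays and in part targets.

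**Figure D3:**
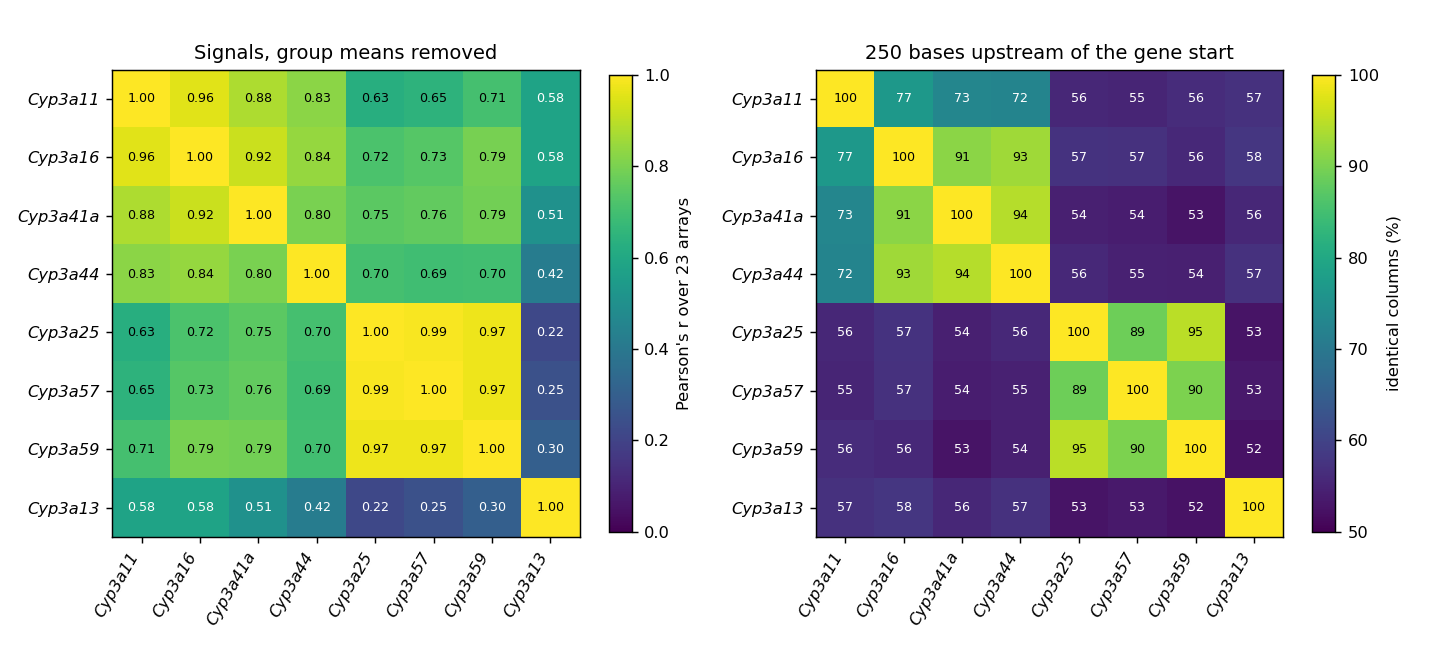
Left, Pearson's r between members over 23 arrays after group means were removed; right, identity in percent of the aligned 250 bases upstream of the start sites, with the members in the same order on both axes. Cyp3a25, Cyp3a57 and Cyp3a59 form a block in both, with r of at least 0.973 and identity of at least 88.9%.

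The 7 responding genes lie together on chromosome 5 and Cyp3a13 apart from them. On mm9 their probes span from 521.6 kb before (Cyp3a57) to 247.7 kb after (Cyp3a59) the Cyp3a11 probe. The smaller responses belonged to the outermost genes, Cyp3a57 on one side and Cyp3a25 and Cyp3a59 on the other. Of the 25 other genes measured within 500 kb of the cluster, 0 were called for PCN in WT by limma, with log2 differences of -0.21 to 0.16 and 1 unadjusted p under 0.05. Around Cyp3a13, 0 of 42 were called (-0.25 to 0.38), and 7 had an unadjusted p under 0.05. Over all probes 259 of 37591 were called and 4441 had an unadjusted p under 0.05 in the same comparison.

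**Figure D4:**
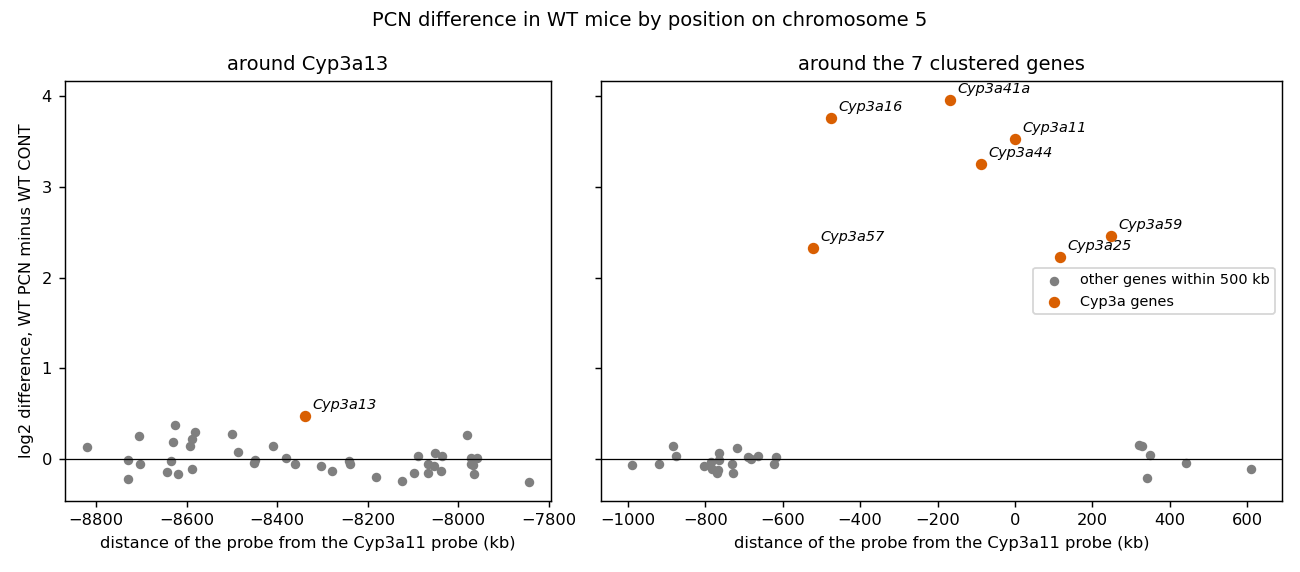
Log2 difference of WT PCN minus WT CONT (y axis) against the distance of the probe from the Cyp3a11 probe in kb (x axis), for Cyp3a genes (orange) and other genes within 500 kb (grey). The 7 clustered Cyp3a genes stand between 2.23 and 3.96, and no neighbour exceeds 0.38.

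Other genes of the PXR pathway moved in the same direction in part. Of 49 listed genes 44 were tested, and 18 were called higher and 0 lower for PCN in WT, with a median of 0.46, against 0.599% of all probes called higher. Among other phase 1 enzymes 7 of 12 were called higher, led by Cyp2b10 (4.61), Cyp2b9 (4.08) and Cyp2c55 (3.51), drug- and steroid-oxidising P450s. Among conjugating enzymes 5 of 13 were called higher, with Gstm3 (2.06), Gsta2 (1.87) and Ugt2a3 (1.59) the largest. Of 6 transporters 3 were called higher, the efflux pumps Abcb1b (1.6), Abcb1a (1.48) and Abcc2 (1.36). Of 6 genes listed for P450 electron and haem supply, including the haem-degrading enzyme Hmox1, 3 were called higher. These were Cyb5a (0.72), Por (0.62), the electron donor of all Cyp3a enzymes, and Alas1 (0.62), the first enzyme of haem synthesis. Of 7 receptors and partners 0 were called by limma, and 0 had an unadjusted p under 0.05. In Pxr-/- 3 of 44 were called higher, against 0.716% of all probes: Hmox1 (1.26), Abcb1a (1.07) and Abcb1b (0.95). Hmox1 had a like difference of 1.15 in WT, where it narrowly missed the call (limma adjusted p = 0.0544).

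The Nr1i2 probe does not check the genotype labels: it read 12.13 ± 0.23 in WT CONT and 11.72 ± 0.3 in Pxr-/- CONT (SD, n = 6 each), and its place relative to the deleted part was not determined.

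By likeness over the 23 arrays, the genes closest to Cyp3a11 outside the family were Cyp2b10 (Pearson's r 0.964), Cyp2b9 (0.958), 4931406C07Rik (0.954), Cyp2c55 (0.951) and Ces2a (0.943). Those closest to Cyp3a25 were Cyp2c66 (0.968), Cyp2c55 (0.968), Cyp2c65 (0.966), Abcg5 (0.94) and Cyp2c40 (0.937). Much of this likeness is the separation of the groups. With group means removed the genes closest to Cyp3a25 included Cyp2c40 (0.882), Mocs2 (0.874), Cyp2c29 (0.87) and Aqp11 (0.869), and those closest to Cyp3a11 reached 0.772 to 0.806.

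Cell markers in the same arrays were read beside these results. The tissue showed ileal markers: Slc10a2 and Fabp6, the bile acid transporter and binding protein of ileal enterocytes, were well above background on 23 of 23 arrays. Summed epithelial marker signal (8 genes) was 19.56 to 19.77 in WT CONT, 19.3 to 19.65 in WT PCN, 19.63 to 19.88 in Pxr-/- CONT and 19.37 to 19.61 in Pxr-/- PCN. With the mean log2 signal of these markers, not the sum, as a covariate, 7 members were still called for PCN in WT. Ileal enterocyte markers (6 genes) had 0 called and 1 unadjusted p under 0.05 for PCN in WT. B cell markers (7 of 8 tested, 0 called by limma, 6 with an unadjusted p under 0.05) had a median difference of 1.42 for PCN in WT, with summed signals of 10.67 to 11.16 in WT CONT and 10.93 to 13.69 in WT PCN. With the mean log2 signal of the B cell markers as a covariate, the Cyp3a11 response was 3.36 and 7 members were called. Among 8 neutrophil markers S100a8 and S100a9 were called higher in both genotypes, and among 8 smooth muscle markers 3 were called higher after PCN in Pxr-/-. The liver list (8 genes) had a median of -0.32 and 0 called, and the list of the proximal small intestine (6 genes) a median of -0.2 and 0 called for PCN in WT. Between oil-treated genotypes the liver list had a median of -0.51, with 1 of 8 genes higher in Pxr-/-, 0 called by limma and 2 with an unadjusted p under 0.05. Its summed signal was 12.25 to 13.17 in WT CONT and 11.55 to 12.78 in Pxr-/- CONT. With group means removed, Cyp3a11 and Cyp3a25 were correlated with each marker list, permuting arrays within groups. The 14 relations had adjusted p of at least 0.221 by this permutation test of Pearson's r. The largest r was 0.565, for Cyp3a11 with ileal enterocyte markers (permutation p = 0.0158, adjusted p = 0.221). Liver, neutrophil and smooth muscle signal was not used as a covariate, and its part in the group differences was not tested.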

How the data were processed

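RNA of 23 ileum samples (150 ng each) was labelled with Cy3 and hybridised to single-colour Agilent arrays of 62976 spots, on 8 slides and in 2 wash batches. Scanner values, made by the authors with Feature Extraction 10.10.1.1, are intensity per the file headers, not background-subtracted for the median signal used here. The deposited table holds log2 values after the authors' signal filter, wash batch correction and CrossNorm normalization. It was used as an alternative.

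Median signals without control spots and outlier flags were put on the log2 scale, averaged per probe and quantile normalised (R 4.3.3, limma 3.58.1). Probes well above background on at least 50% of the arrays of a group were fitted with 4 groups and wash batch, with Benjamini-Hochberg adjustment over 37591 probes. Calls needed an adjusted p of at most 0.05 and more than 1.5-fold. The scanner values take the place of the table because they carry the background marks. Median signals per array were 74 to 106, local background was 19 to 28.5, and 60.9% to 67.3% of probes were well above background. The number of arrays limits the precision. The fit was tested on simulated data.

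All members are named, with up to 3 called genes per pathway list, neighbours within 500 kb and the 5 most alike genes, of which 1 is not reported here. Members and lists were chosen with earlier results of these data known. Alternatives covered normalization, background, filter, batch, slide, cell scores and single arrays. The labels do not say that replicate numbers pair mice: they number separate, randomly allocated animals. Probe coordinates are mm9 and promoter windows GRCm38.p6, and they were not converted. Protein sequences were not used here.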

Additional observations from a re-analysis of the deposited data

Results flagged for a closer look

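Cyp3a13 in Pxr-/- CONT had 1 array far below the others: replicate 4 read 12.53, and the next lowest 12.76, with a gap of 0.692 of the group's range. Chance alone puts about 1 in 20 groups past this limit, and 32 groups were examined, of which 1 passed. The cause was not tested.

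The PCN response in WT minus that in Pxr-/- was past the threshold in the interaction test for 4 members: Cyp3a11 (3.58), Cyp3a16 (3.75), Cyp3a41a (4.06) and Cyp3a44 (3.11). It was not for the other 4.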

How the results depend on the processing

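Of the 42 other settings, 23 left out 1 array each. These gave 7 called members for PCN in WT, 0 for PCN in Pxr-/-, 3 to 4 for the interaction, and 7 for each comparison of genotypes. The interaction count fell from 4 to 2 with the processed signal minus its 75th percentile (Cyp3a16 and Cyp3a44 lost). PCN in Pxr-/- gave 2 with slide as a fixed block. Within wash batch 1, PCN in WT gave 3 called members, the interaction 0 and the genotypes without PCN 1. Within wash batch 2, PCN in WT gave 4 and the interaction 0. Those fits have 2 or 3 arrays per group. Every value called in the main fit kept its sign in all settings. Some differences for PCN in Pxr-/-, none of them called in the main fit, changed sign. Cyp3a16 (0.01) became -0.03 in the deposited table, -0.26 within wash batch 1, -0.05 with the B cell score, and ran from -0.08 to 0.06 without 1 array. Cyp3a11 (-0.05) became 0.24 with slide as a fixed block, 0.04 with the epithelium score, and ran from -0.17 to 0.03 without 1 array. Cyp3a41a (-0.1) became 0.3 with slide as a fixed block, 0.37 within wash batch 2, and ran from -0.25 to 0.03 without 1 array. Cyp3a44 (0.14) became -0.28 within wash batch 1, -0.12 with the epithelium score and ran from -0.14 to 0.24 without 1 array (-0.14 without Pxr-/- PCN replicate 5). Cyp3a13 (0.08) became -0.02 within wash batch 2. The difference of Cyp3a25 (0.77) was not near 0. It became -0.01 within wash batch 1 and 1.55 within wash batch 2, and was called with slide as a fixed block (1.04, limma adjusted p = 0.0433). The cause was not tested.

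Replicate numbers do not pair the samples: correlations between same-numbered arrays ran from -0.265 to 0.351 over 33 pairs. With the replicate block, PCN in WT gave 7 called members, PCN in Pxr-/- 0, the interaction 4 and the genotypes 7 and 7. The members that responded unlike Cyp3a11 numbered 6, and 5 in the deposited table (Cyp3a41a, 0.42, adjusted p = 0.0505). Raising dim signals to the background floor was chosen after the data had been seen and changed no call. Restricting the fit to the groups compared could not be run for the interaction, which needs all 4.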
